A study of Mus musculus with 6 samples.

Results

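The calcineurin, NFAT and Rcan genes are 10 of 18193 genes measured in mouse heart, chosen by name with earlier results of these data known. They are the calcineurin subunit genes Ppp3ca, Ppp3cb and Ppp3r1, the regulators Rcan1 and Rcan2, the transcription factor genes Nfatc1, Nfatc2, Nfatc3 and Nfatc4, and the kinase gene Camk2d. Together they had 38 of 45037 probe sets, taken as those whose only gene symbol in the platform annotation was one of these names. A gene is represented by its brightest probe set, that with the highest mean over the 6 arrays, and the others are given beside it. A further probe set, annotated to both Wdr92 and Ppp3r1, was left out.

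Ventricular tissue was compared between 3 arrays of wild-type mice and 3 arrays of caAkt mice, all aged 8 weeks. The caAkt mice carry a transgene expressed constitutively in the heart only, which encodes an activated form of the kinase Akt. The promoter that drives it, the strain, the sex, the transgenic line and any batch are not given in the sources used here. The series was made to describe the changes in gene expression that underlie heart failure in these mice. The labels give 3 samples per group without saying that each array is a separate heart, so the p-values cover only array-to-array spread, which could be technical.

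Calcineurin is a phosphatase made of a catalytic A subunit and a regulatory B subunit, and it is switched on by calcium and calmodulin. It removes phosphate from NFAT factors, which then enter the nucleus, and NFAT kinases such as GSK3 send them back. Rcan proteins bind calcineurin and restrain it, and Rcan1 is itself induced by NFAT, so its transcript is widely used as a readout of the pathway. In the heart the pathway is known for its part in pathological growth, beside the calmodulin-dependent kinase CaMKII, whose main cardiac form is encoded by Camk2d.

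All levels are log2 values made by the authors with RMA, which sets genes relative to the bulk of each array. Differences are caAkt minus wild-type on this log2 scale, and a gene was called at a Benjamini-Hochberg adjusted p under 0.05 in a limma fit over all genes. Array medians lay between 6.77 and 6.80, and values were correlated at 0.995 to 0.997 within genotypes and 0.983 to 0.985 between them. The transgene was seen at an Akt1 probe set that stood at 9.79 to 10.18 in wild-type and 15.08 to 15.16 in caAkt hearts. No filter on low levels was used. The brightest probe sets of all 10 genes, and 27 of the 38 probe sets, had means above 6.78, the median of all probe sets.

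The tissue carried the ventricular markers Myl2 and Irx4, of which Irx4 was lower in caAkt hearts. A further ventricular marker, Hey2, was called lower too, but it was dim. It stood at 5.94 in wild-type and 5.35 in caAkt hearts, under the median of all probe sets. The atrial markers Myl7, Sln and Myl4 varied within both groups, with a summed level of 9.93 to 12.88 in wild-type and 10.35 to 12.06 in caAkt hearts, and 0 of 3 were called by limma (0 also at an unadjusted p under 0.05). Of 11 cardiomyocyte markers, 5 fell and 0 rose (6 and 1 at an unadjusted p under 0.05 in the limma fit; median -0.20), with a summed level of 18.24 to 18.37 in wild-type and 18.17 to 18.19 in caAkt hearts. Of 11 macrophage markers, 10 rose and 1 fell, with a median difference of 1.30 and a summed level of 13.23 to 13.48 against 14.70 to 14.98. Of 10 fibroblast markers, 7 rose and 0 fell (the same at an unadjusted p under 0.05; median 0.82), with a summed level of 14.96 to 15.29 against 16.35 to 16.51. In bulk tissue, more or fewer cells of a type and more or less RNA per cell cannot be told apart. The part of these marker differences in the results that follow was not tested.

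Of the 10 genes, 1 rose and 0 fell, against a background of 28.5% of all genes called (16.1% higher and 12.4% lower). The same counts were found at an unadjusted p under 0.05 in the limma fit. The gene that rose was Rcan1, and the other 9 had differences of -0.24 to 0.22. The median over the 10 genes was 0.01, and over all genes tested it was -0.04. The values of the 2 genotypes did not overlap for 2 of the 10 genes, Rcan1 and Nfatc3, where the background was 42.4% of all genes. That count was 4 on dropping wild-type array 1, wild-type array 3 or caAkt array 1. The share of all genes is not given for those smaller sets of arrays, so these counts cannot be set against 42.4%.

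**Figure D1:**
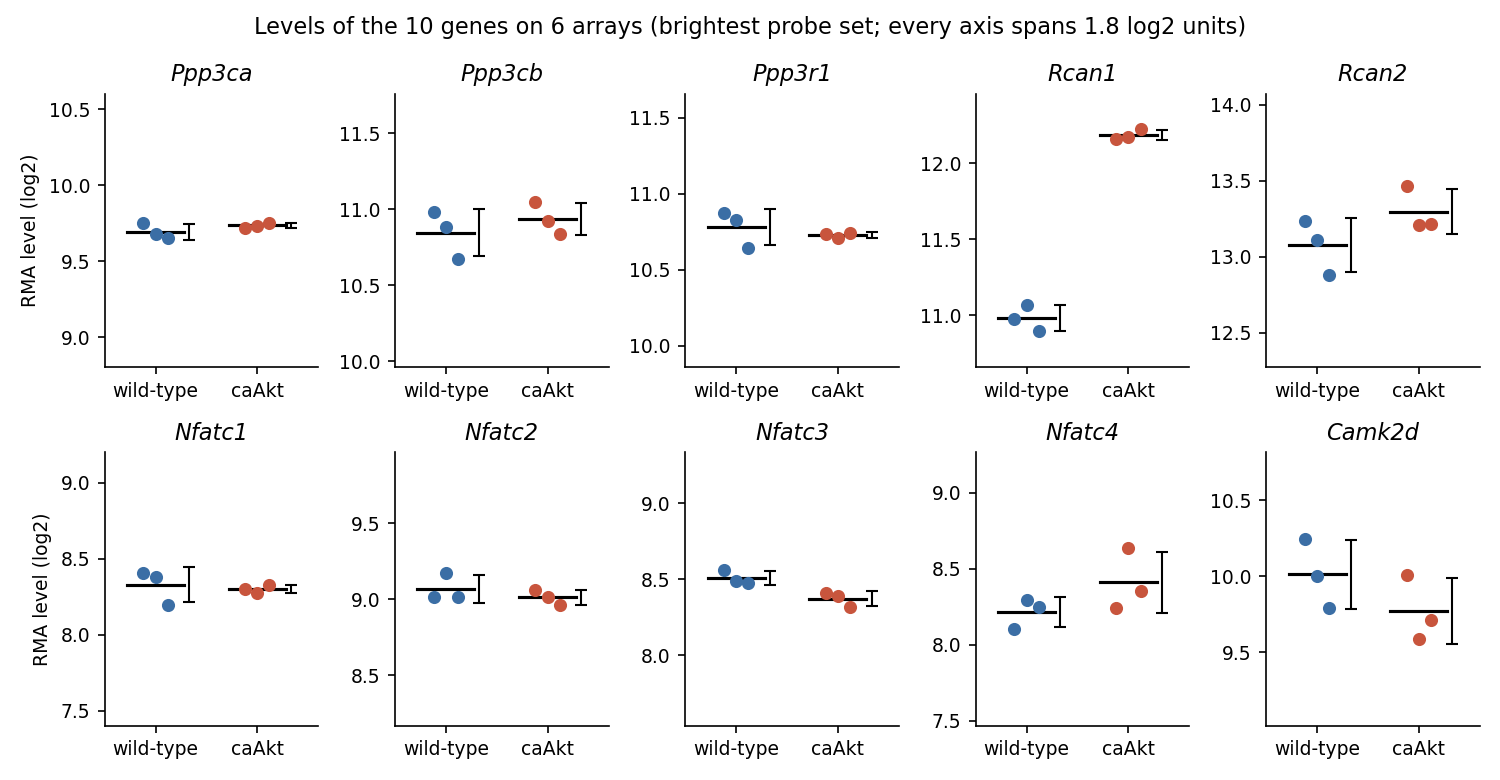
RMA log2 level (vertical axis) of the brightest probe set of each of the 10 genes in wild-type (blue) and caAkt (red) hearts. Points are arrays, horizontal lines are means and bars are SDs (n = 3). Every panel spans the same range of log2 units. The groups stand far apart for Rcan1, by 1.21, and by a small step for Nfatc3, while those of the other 8 genes overlap.

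Rcan1 encodes regulator of calcineurin 1, which binds and restrains the phosphatase. Its brightest probe set (1416600_a_at) stood at 10.98, 11.07 and 10.89 on the wild-type arrays and at 12.16, 12.17 and 12.22 on the caAkt arrays. Every caAkt value was more than 1 log2 unit above every wild-type value. The difference was 1.21 ± 0.07 (SE), or 2.31-fold, with an adjusted p of 5.47e-06 by limma and a 95% interval of 1.04 to 1.37. Of all genes tested, 2.25% had a larger absolute difference. Genes that rose by at least 2-fold, as Rcan1 did, made up 2.48% of all genes.

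The second Rcan1 probe set (1416601_a_at) rose too, from 10.18, 10.13 and 10.13 to 11.58, 11.45 and 11.71. Its difference was 1.43 ± 0.08 (SE), or 2.69-fold, with an adjusted p of 1.06e-05 in the limma fit of all probe sets, in which 11.3% of probe sets were called higher. This dimmer probe set rose by more, so the gap between both narrowed on every caAkt array. That inequality of 0.22 ± 0.10 was not called (adjusted p = 0.221 by limma; exact permutation p = 0.1, the smallest that 3 against 3 arrays allow). With each array left out in turn, the difference at the brightest probe set was 1.16 to 1.25, and Rcan1 was called every time.

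Rcan1 is shown here by its start sites because transcripts from its internal start are known to be induced by calcineurin and NFAT, while those from the upstream start are made more constantly. The RefSeq promoter table (build GRCm38.p6) lists both starts, on the minus strand of chromosome 16 and 66091 bases apart. Each window runs from 250 bases before the start to 50 bases after it and is printed 5′ to 3′ along the gene. Capitals mark the letters searched for on both strands. They are GGAAA, the core of NFAT sites, TGANTCA, a loose form of the AP-1 site, and TGACGTCA, the cAMP response element. N stands for any base. These letters were chosen with the sequences in view.
Rcan1 upstream start, chr16:92466120-92466419: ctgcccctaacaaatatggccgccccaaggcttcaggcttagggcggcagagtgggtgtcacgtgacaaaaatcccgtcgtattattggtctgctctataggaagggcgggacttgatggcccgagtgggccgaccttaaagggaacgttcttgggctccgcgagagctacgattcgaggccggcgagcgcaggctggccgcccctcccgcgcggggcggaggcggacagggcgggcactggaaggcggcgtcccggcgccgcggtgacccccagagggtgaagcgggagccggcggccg
Rcan1 internal start, chr16:92400029-92400328: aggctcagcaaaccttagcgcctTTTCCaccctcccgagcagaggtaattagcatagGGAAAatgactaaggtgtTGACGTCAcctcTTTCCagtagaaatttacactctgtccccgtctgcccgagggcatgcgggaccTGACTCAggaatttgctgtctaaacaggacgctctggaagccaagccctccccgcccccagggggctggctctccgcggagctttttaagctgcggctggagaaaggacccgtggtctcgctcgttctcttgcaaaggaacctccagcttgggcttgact
The upstream window held 0 matches. The internal window held 3 GGAAA cores, at -227, -193 and -163 from the start site to the first base of the match, 1 TGACGTCA at -175 and 1 TGANTCA, read as TGACTCA, at -110, and none of these matches overlapped another motif. Of 32851 promoter windows of the same length in the table, 9.42% held at least 3 GGAAA cores, 7.81% held TGANTCA and 1.79% held TGACGTCA. A match is a description of the letters, not a binding site. The 2 probe sets do not tell the starts apart here, because the part of the transcript that each covers was not analysed.

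The table held windows for 8 of the 10 genes, 13 in all. Among those genes, GGAAA was also found 4 times in the Ppp3cb window, 3 times in the Nfatc4 window and 3 times in an Nfatc2 window. None of the brightest probe sets of these 3 genes was called. Rcan2, which was not called either, held 2 GGAAA in a window and 1 TGANTCA in another. TGACGTCA was found in the internal Rcan1 window alone among the 13.

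Rcan2, the paralog that also binds calcineurin and is known to follow thyroid hormone, did not move with Rcan1. It stood at 13.23, 13.11 and 12.88 in wild-type and at 13.47, 13.21 and 13.22 in caAkt hearts, and the groups overlapped. The difference was 0.22 ± 0.11 (SE, adjusted p = 0.163 by limma, 95% interval -0.02 to 0.47). Its second probe set gave -0.08 ± 0.12. With its probe sets averaged, Rcan2 had a value of 0.073. Within arrays, Rcan1 gained 0.98 on the brighter Rcan2: Rcan1 minus Rcan2 was -2.26 to -1.99 in wild-type and -1.31 to -0.99 in caAkt hearts, so the gap was smaller on every caAkt array. The exact permutation p of that unequal change was 0.1, the smallest possible, and 0.4 adjusted over the 8 pairs of related genes compared.

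The calcineurin subunit genes held their levels closely at their brightest probe sets. Ppp3ca, which encodes the alpha form of the catalytic subunit, stood at 9.76, 9.68 and 9.65 in wild-type and at 9.72, 9.73 and 9.76 in caAkt hearts. Ppp3cb, the gene of the beta form, stood at 10.98, 10.88 and 10.67 and at 11.05, 10.92 and 10.84. Ppp3r1, the gene of the calcium-binding regulatory subunit, stood at 10.87, 10.83 and 10.64 and at 10.74, 10.71 and 10.74. The groups overlapped for all 3 genes.

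The differences of these subunit genes were 0.04 ± 0.07, 0.09 ± 0.10 and -0.05 ± 0.08 (SE), with adjusted p-values of 0.682, 0.521 and 0.648 by limma. At these brightest probe sets the 95% intervals together ran from -0.23 to 0.30, so the largest change that any of them allows is 1.23-fold. Of the 10 probe sets of the subunit genes, 0 were called by limma, with values of -0.22 to 0.09 and unadjusted p-values of 0.149 or more. Some of the other probe sets allow a larger change: the interval of Ppp3cb probe set 1433835_at ran from -0.53 to 0.09. Ppp3ca and Ppp3cb differed from each other in their change by -0.05, with overlapping groups (exact permutation p = 0.7). These are transcript levels, and the activity of calcineurin was not measured.

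The NFAT genes were not called at their brightest probe sets. Nfatc1, known in the heart for its part in endocardial valve formation, stood at 8.41, 8.38 and 8.19 in wild-type and at 8.30, 8.27 and 8.32 in caAkt hearts (difference -0.03 ± 0.08, adjusted p = 0.811 by limma). Nfatc2, known best from T cells, stood at 9.02, 9.18 and 9.02 and at 9.06, 9.02 and 8.96 (difference -0.06 ± 0.07, adjusted p = 0.610). For both genes the groups overlapped. Of 7 T cell markers 0 were called by limma (0 also at an unadjusted p under 0.05), of 5 B cell markers 1 rose, and of 5 endocardial markers 2 rose and 1 fell.

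Nfatc3 and Nfatc4, the NFAT genes most often tied to growth of the heart muscle, had values of opposite sign at their brightest probe sets, and neither was called. Nfatc3 stood at 8.56, 8.49 and 8.47 in wild-type and at 8.40, 8.39 and 8.31 in caAkt hearts, so that the groups did not overlap. Its difference was -0.14 ± 0.07 (SE, adjusted p = 0.160 by limma), and it was called at -0.20 (adjusted p = 0.0401) once the arrays were quantile normalized again. Its second probe set had a value of 0.22, and the sign turned with both averaged (0.039). Nfatc4 stood at 8.10, 8.30 and 8.25 and at 8.24, 8.64 and 8.35, with overlapping groups and a difference of 0.20 ± 0.11 (adjusted p = 0.208). With its probe sets averaged the value was 0.012, and with plain probe sets only, those named without _a, _s or _x, the sign turned (-0.25). The unequal change of Nfatc3 and Nfatc4 was -0.33, with an exact permutation p of 0.1 and 0.4 adjusted over the 8 pairs.

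Over the 4 NFAT genes, 1 of 17 probe sets was called in the fit of all probe sets, against a background of 8.76% called lower and 11.3% called higher. It was an Nfatc2 probe set (1425901_at), at 7.87, 7.86 and 7.83 in wild-type and 7.64, 7.61 and 7.52 in caAkt hearts, a fall of 0.27 on the log2 scale (SE 0.07, adjusted p = 0.0249 by limma). The call was lost on dropping wild-type array 1 (adjusted p = 0.0685), wild-type array 2 (0.0778), caAkt array 2 (0.0577) or caAkt array 3 (0.0777). An Nfatc1 probe set (1417621_at) had a value of 0.28 ± 0.09 (adjusted p = 0.0576) with groups that did not overlap, and it was called on dropping wild-type array 3 (0.36, adjusted p = 0.0135).

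**Figure D2:**
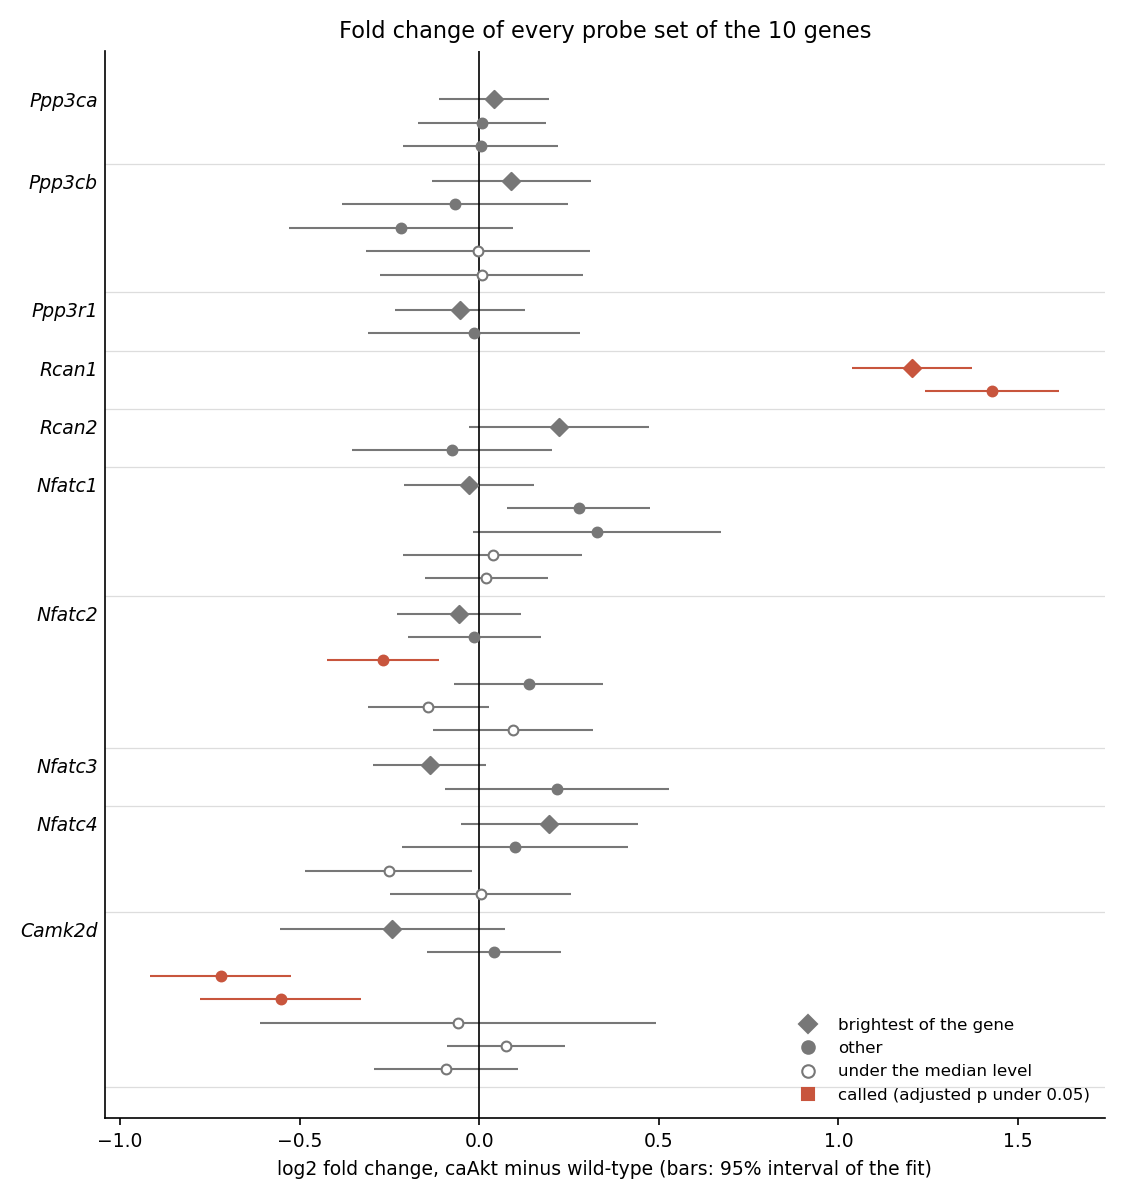
Difference between caAkt and wild-type (log2, horizontal axis) for each of the 38 probe sets, grouped by gene with the brightest first. Diamonds are brightest probe sets, open symbols lie under the median level of 6.78, bars are 95% intervals of the limma fit and red marks called probe sets. The 2 Rcan1 probe sets stand alone on the right, 2 Camk2d probe sets and 1 Nfatc2 probe set lie to the left, and the other 33 are grey.

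Camk2d, the gene of the delta form of CaMKII, was not called at its brightest probe set but fell at other probe sets. The brightest (1422659_at) stood at 10.24, 10.0045 and 9.79 in wild-type and at 10.01, 9.59 and 9.71 in caAkt hearts, with overlapping groups. Its difference was -0.24 ± 0.14 (SE, adjusted p = 0.219 by limma), and its 95% interval ran from -0.55 to 0.06. The next (1427763_a_at) stood at 9.73 ± 0.13 and 9.78 ± 0.04 (SD, n = 3), a difference of 0.04.

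The third probe set of Camk2d (1439168_at) stood at 9.84, 9.60 and 9.81 in wild-type and at 9.09, 9.06 and 8.95 in caAkt hearts. It fell by 0.72 on the log2 scale (SE 0.09), or 1.65-fold, with an adjusted p of 0.000506 in the limma fit of all probe sets. The next in brightness (1459457_at) stood at 8.81, 8.66 and 9.02 and at 8.31, 8.33 and 8.21, a fall of 0.55 (SE 0.10, adjusted p = 0.00429). At both, every caAkt array lay under every wild-type array, and the calls were kept without any single array. Probe sets called lower made up 8.76% of all probe sets.

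The remaining Camk2d probe sets lay under the median level and had values of -0.06, 0.07 and -0.09. With all its probe sets averaged, Camk2d had a value of -0.22 and was not called (adjusted p = 0.0581 by limma). Camk2d is known to be spliced into several forms, and which of them each probe set reports was not analysed here. Tested directly within arrays, the change of probe set 1439168_at differed from that of the brightest by -0.48 ± 0.15 (adjusted p = 0.0665 by limma over all genes with several probe sets; exact permutation p = 0.1). Probe set 1459457_at differed from the brightest by -0.31 ± 0.18 (adjusted p = 0.333). In this test 1 of the 28 pairs of the 10 genes was called, and 11.3% of all pairs were. It was an Nfatc4 pair (1432821_at against the brightest, -0.45 ± 0.12, adjusted p = 0.0386), whose dimmer probe set stood at 6.91, 6.80 and 7.01 in wild-type and 6.45, 6.77 and 6.74 in caAkt hearts. On dropping any array but wild-type array 2 the call was lost (adjusted p of 0.0511 to 0.128).

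**Figure D3:**
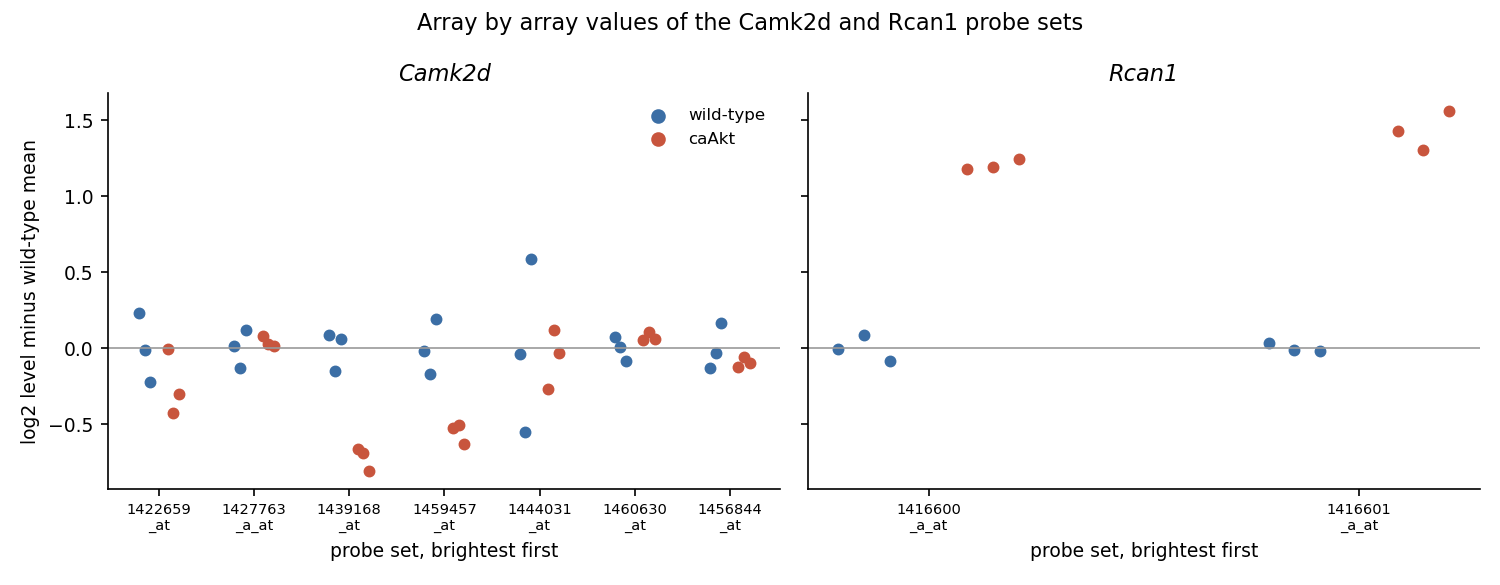
Log2 level of each probe set of Camk2d (left) and Rcan1 (right) on every array, after subtraction of the wild-type mean of that probe set. Blue points are wild-type and red points are caAkt arrays. Camk2d probe sets 1439168_at and 1459457_at lie below the wild-type arrays, the other 5 mix with them, and both Rcan1 probe sets lie above by 1.21 and 1.43 on average.

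The pathway lists are read against the same background of 28.5% of all genes called, 16.1% higher and 12.4% lower, and differences between lists were not tested. All lists were chosen with earlier results of these data known, so their counts are descriptions only. Of 15 measured genes for other subunits, inhibitors and anchors of calcineurin, 7 rose and 2 fell (median 0.24). Cib1, which brings calcineurin to the cell membrane, rose from 8.93 ± 0.11 to 9.88 ± 0.04 (SD, n = 3), or 1.94-fold (adjusted p = 2.45e-05 by limma), though a dim second probe set gave -0.10 and the mean of both gave 0.43. Fkbp1b, which encodes a binding protein of the ryanodine receptor, rose by 0.61 ± 0.07, and Lmcd1, a LIM protein that promotes calcineurin signalling, by 0.74 ± 0.10. Akap5, an anchor of calcineurin, fell by 0.56 ± 0.16, and Myoz2, the Z-disc inhibitor calsarcin-1, fell by 0.30 ± 0.09 (adjusted p = 0.0327).

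Both falls were lost in fits with an array left out. For Akap5 this was so on dropping wild-type array 1 (-0.39, adjusted p = 0.0548), caAkt array 1 (0.0768) or caAkt array 3 (0.0980), and for Myoz2 on dropping any array but wild-type array 3 (adjusted p up to 0.120). On dropping caAkt array 3 or wild-type array 3, 4 genes of the list rose. The third family member Rcan3 rose by 0.26 ± 0.08 (adjusted p = 0.0406 by limma) and is named here with its value known. In the limma fit of all probe sets this probe set was not called (adjusted p = 0.0605), and a dimmer one gave -0.06. Ppp3cc, a further catalytic subunit gene, had a value of -0.19 and was not called.

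Of 12 genes for kinases that phosphorylate NFAT, 1 rose and 2 fell (median -0.04). Gsk3b, the NFAT kinase that Akt inhibits by phosphorylation, stood at 9.63, 9.14 and 10.34 in wild-type and at 10.47, 10.50 and 10.47 in caAkt hearts. It was called at 0.77 ± 0.24 (adjusted p = 0.0393 by limma), and the wild-type values were widely spread but all lay lower. On dropping any array but wild-type array 3 the call was lost (adjusted p 0.0938 to 0.115), and a second Gsk3b probe set of like level had a value of 0.02. With all Gsk3b probe sets averaged the value was 0.23. Mapk14, the p38 kinase, fell by 0.41 ± 0.08 (adjusted p = 0.00512), but its next probe set gave 0.0024 and the mean of its probe sets -0.20 (adjusted p = 0.0482). Dyrk1a fell by 0.34 ± 0.09 at its brightest probe set but rose by 0.39 at the next, and the mean of its probe sets was -0.030. Its fall was lost on dropping wild-type arrays 1 or 2 (adjusted p = 0.0600 and 0.0692) or caAkt arrays 1 or 3 (0.0546 and 0.0617).

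Of 11 measured genes for calmodulin-dependent kinases, their inhibitors and Camta factors, 5 rose and 1 fell (median 0.34). Camta1, a calmodulin-binding transcription factor, rose by 0.96 ± 0.08, or 1.94-fold (adjusted p = 2.95e-05 by limma), and by 0.89 at its second probe set. Dimmer Camta1 probe sets gave -0.05 and -0.36, and the mean of all was 0.36 (adjusted p = 0.00214). Camk1 rose by 0.49 ± 0.07 and Camk1d by 0.49 ± 0.10. The inhibitors of CaMKII were higher too, with Camk2n1 at 0.42 and Camk2n2 at 0.39 (adjusted p = 0.0112 and 0.0249 by limma), both named with their values known. A dimmer Camk2n1 probe set gave 0.0039 and was not called. Camk2n2 stood near the median level, at 6.63 in wild-type and 7.02 in caAkt hearts. At their brightest probe sets Camk2a, Camk2b and Camk2g, the genes of the other CaMKII forms, had values of -0.01, 0.09 and 0.14 and were not called. A dimmer Camk2a probe set, at a mean level of 6.77, was called lower at -1.04 (adjusted p = 0.00111 in the limma fit of all probe sets). The remaining Camk2a probe sets had values of -0.12 to 0.03 and were not called. Camk4 fell by 0.30 ± 0.09 (-0.12 and not called with its probe sets averaged), and the call was kept only on dropping wild-type array 1 or caAkt array 3 (adjusted p up to 0.107 on dropping the others).

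Of 14 measured genes of calcium entry and release, 1 rose and 3 fell (median -0.05). Cacna1c, the pore subunit of the L-type calcium channel, fell from 10.86 ± 0.03 to 10.34 ± 0.03 (SD, n = 3), or 1.43-fold (adjusted p = 0.000341 by limma). Its other probe set gave -0.25 and was not called (adjusted p = 0.0753 in the limma fit of all probe sets). The mean of both Cacna1c probe sets was -0.38 (adjusted p = 0.00175 by limma). Itpr2, the main inositol trisphosphate receptor of heart muscle cells, fell by 0.57 ± 0.08, and by 0.35 with its probe sets averaged. Cacna1g, a T-type channel gene, fell by 0.55 ± 0.15 and the call was kept only on dropping wild-type array 1 or caAkt array 2 (adjusted p up to 0.0870 on dropping the others). Stim2 rose by 0.24 ± 0.08 (0.11 and not called with its probe sets averaged), and the call was kept only on dropping caAkt array 2 (adjusted p up to 0.138 on dropping the others). Its adjusted p was 0.0770 with the replicate number as a block. Trpc6 stood at 3.81 ± 0.10 in wild-type and 3.84 ± 0.03 in caAkt hearts, far under the median level.

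Of 17 partner factors of NFAT and targets of CaMKII, 2 rose and 5 fell (median -0.05; 3 fell on dropping wild-type array 2 or caAkt array 3). Fosl2, an AP-1 subunit, rose by 0.82 ± 0.12, but its second probe set gave 0.03 and the mean of both 0.43 (adjusted p = 0.00623). Gata4, the cardiac factor that binds Nfatc4, rose by 0.35 ± 0.07. Mef2a fell by 0.60 ± 0.08 (adjusted p = 0.000489 by limma), Hdac9, a class II deacetylase that restrains MEF2, by 0.80 ± 0.11, and Gata6 by 0.51 ± 0.09. Mef2c and Mef2d had values of 0.03 and -0.19 and were not called.

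Of 14 measured genes known to rise with calcineurin and NFAT in the heart, 11 rose and 0 fell (12 and 0 at an unadjusted p under 0.05 in the limma fit). This list too was chosen with earlier results of these data known, so the count is not an independent check of the pathway. The median was 1.04, and it was 0.91 over the 13 genes without Rcan1, of which 10 rose. Il6, the cytokine interleukin 6, rose from 3.98 ± 0.24 to 6.49 ± 0.11 (SD, n = 3). The wild-type level lies under 5.27, the 25th percentile of all levels, so no fold is given for it. Nppa, the gene of atrial natriuretic peptide, rose by 2.42 ± 0.12 and Postn, the matrix protein periostin, by 2.31 ± 0.13. Acta1 (0.86), Edn1 (-0.09) and Trpc6 (0.04) were not called. Most of these genes are known to answer to other signals of growth or injury as well. Postn and Ccn2 are also made by fibroblasts and Il6 by macrophages, whose markers had medians of 0.82 and 1.30. Postn is itself one of those fibroblast markers and the highest of them, so the lists are not separate.

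**Figure D4:**
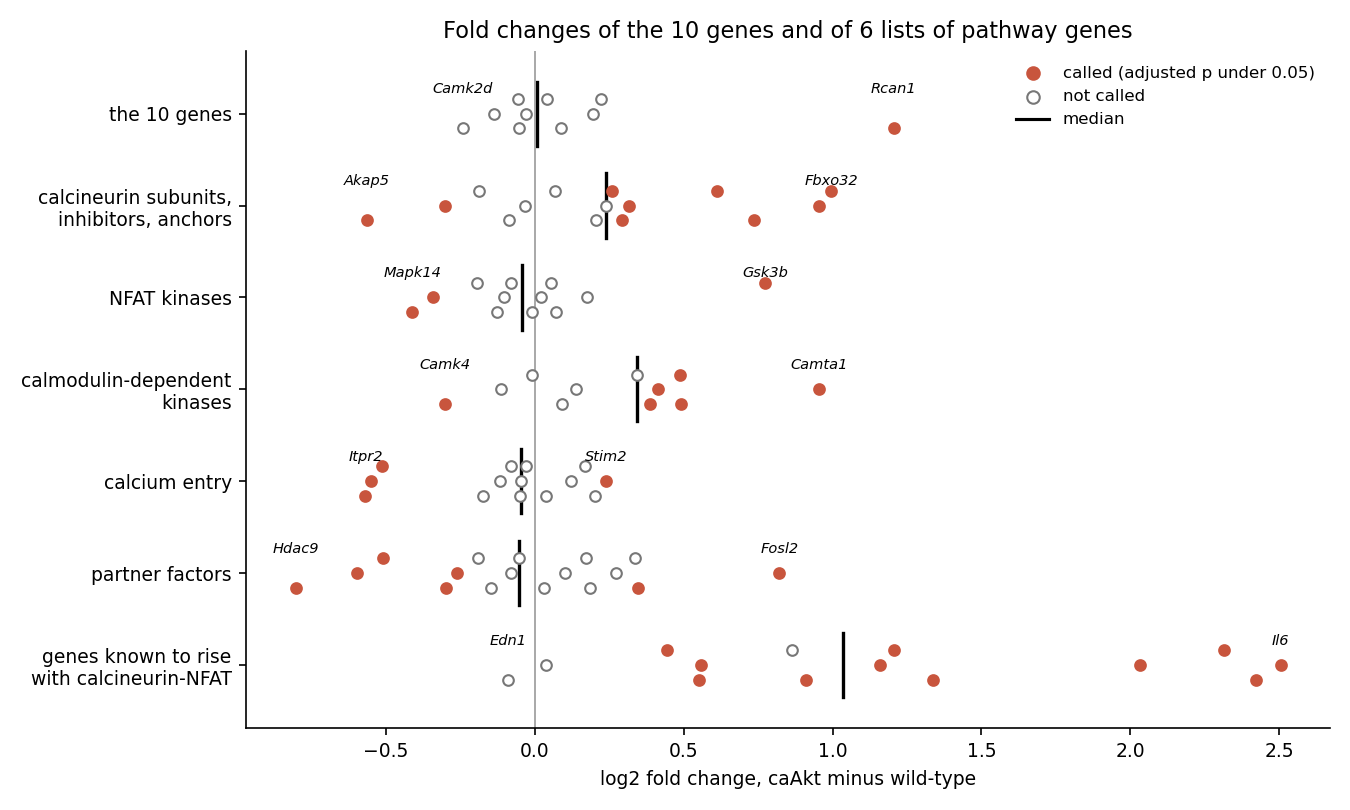
Differences between caAkt and wild-type (log2, horizontal axis) of the 10 genes and of 6 lists of pathway genes, a point per gene at its brightest probe set. Red points were called, open points were not, black bars are medians, and the genes at both ends of each list are named. The medians lie between -0.05 and 0.34 except for the genes known to rise with calcineurin and NFAT, at 1.04. All lists were chosen with earlier results of these data known.

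The profiles over the 6 arrays most like that of Rcan1 were those of AI413582, Akip1 and Sec16b, of 16436 other named genes. Likeness was the root mean square difference between log2 values after each gene's own mean was subtracted, and it was 0.037, 0.042 and 0.049. AI413582 rose by 1.17 ± 0.08, Akip1 by 1.23 ± 0.06 and Sec16b by 1.19 ± 0.08 (adjusted p of 1.42e-05 or less by limma). With only these groups of 3 arrays, the likeness reflects mostly the shared size of the rise.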

How the data were processed

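The 6 arrays measured biotin-labelled total RNA of ventricular tissue, extracted with Trizol and RNeasy per the labels' protocols. The values used are deposited log2 levels of probe sets, computed by the authors with RMA in the R package affy, per the submitters' processing notes, with versions not given in the sources used here. RMA corrects background, quantile normalizes arrays and summarises probes, so a shift common to nearly all genes is hidden. Gene symbols came from the platform annotation. Of 45101 probe sets, 64 controls were dropped, 34945 had 1 gene symbol, 932 several and 9160 none. Tests used lmFit and eBayes of limma 3.58.1 (R 4.3.3; two-sided, genotype as the term, 4 residual degrees of freedom), adjusted over 18193 genes or 45037 probe sets. The steps were tested on simulated data. Unequal change was tested within arrays by exact permutation, two-sided, and by limma over 16752 pairs of probe sets, the latter added after the data were seen. Summed levels of markers are the log2 of summed linear values.

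The 10 genes and all lists were chosen with earlier results of these data known. From each pathway list the rule named up to 3 called genes with the smallest p in each direction; other genes of the lists are named with their values known. The promoter motifs were chosen with the sequences in view. Of the listed genes, 2 were matched through older symbols. Alternatives were eBayes with trend and robust settings, other choices of probe set, filters on dim probe sets, renewed normalization, array weights, a replicate block, a stricter threshold and each array left out. The number of arrays limits the precision.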

Additional observations from a re-analysis of the deposited data

How the results depend on the processing

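Rcan1 was called with values of 1.14 to 1.32 in all 16 alternatives that could be fitted for it; Rcan1, Rcan2 and Nfatc3 have no plain probe set (names ending in _at without _x, _s or _a), so with plain probe sets only 0 of the 10 genes rose, and the groups of 1 did not overlap. After quantile normalization of the values again, 1 gene fell, Nfatc3, and the groups of 4 did not overlap, as for 2 to 4 genes with single arrays left out. For the alternatives the share of all genes without overlap is not given, so these counts have no background. With all probe sets as rows, 2 genes fell at any probe set, Camk2d and Nfatc2. Some values that were not called changed sign: Nfatc1 (0.13), Nfatc3 (0.039) and Ppp3cb (-0.038) with all probe sets of a gene averaged, Nfatc4 (-0.25) with plain probe sets, Ppp3ca (-0.016) after quantile normalization again, and Nfatc1 (0.011) without wild-type replicate 1; its values with single arrays left out ran from -0.095 to 0.011. The cause was not tested.

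Over all genes, 3255 were called at an adjusted p under 0.01, of which 1270 were lower, and with all probe sets as rows 9023 were called, 5080 higher and 3943 lower. With single arrays left out, 3984 to 4827 genes were called. The median of all genes moved by 0.0007 after quantile normalization again and by 0.015 after median centring, and the share of called genes that were higher was 49.6% and 59.7%, against 56.5%.

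For the pathway lists, averaging all probe sets of a gene gave 0 genes higher for calcium entry, 0 lower for calmodulin-dependent kinases, 1 lower for NFAT kinases and 4 higher for calcineurin subunits, inhibitors and anchors. Quantile normalization again gave 0 higher for calcium entry and 0 higher for NFAT kinases. With single arrays left out, calcium entry had 0 to 1 higher, calmodulin-dependent kinases 0 to 1 lower, NFAT kinases 0 to 1 higher and 1 to 2 lower, partner factors 3 to 4 lower, and calcineurin subunits, inhibitors and anchors 4 to 6 higher and 0 to 2 lower.

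The labels do not say that equal replicate numbers pair the arrays. Deviations from the group means correlated at 0.27, 0.03 and -0.12 between arrays of the same number, and at -0.27 to 0.23 between arrays of different numbers. So few values cannot decide whether the numbers mark pairs. With the replicate number as a block, 5141 genes were called, 1 of the 10 genes rose and 0 fell.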
